A study of Arabidopsis thaliana with 9 samples.

Results

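The comparison described here sets 2 leaf libraries harvested 9 h after a temperature shift against 2 harvested 6 h after it, 1 library of each genotype at each time. The genotypes were slh1, a mutant in the immune receptor gene RRS1, and its parent ecotype Nossen (No-0) of Arabidopsis thaliana. The groups used were slh1 9 h, No-0 9 h, slh1 6 h and No-0 6 h, all at 21 °C, and they are 4 of the 8 libraries of the series, whose other libraries were taken at 0 h (28 °C) and 24 h (21 °C). Plants had grown for 4 weeks at 28 °C in short days of 10 h light and 14 h dark, and were moved to 21 °C at the beginning of a light period. The libraries were made by EXPRSS Tag-seq, which sequences 1 tag from near the 3′ end of each polyadenylated transcript, so that a tag count needs no correction for transcript length. The features compared were the 2309 loci with a mean of at least 20 sense tags over the 4 libraries, of 21063 sense loci in the series.

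Leaf transcripts change through the day under the joint control of light and of the circadian clock. In the Arabidopsis clock, morning genes such as CCA1 and LHY repress evening genes through a promoter motif called the evening element, and the evening proteins ELF3, ELF4 and LUX form a complex that represses other clock genes at dusk. Genes for light-harvesting proteins and chlorophyll synthesis are well known for levels that are highest in the first part of the day. If the chamber at 21 °C kept the short day, 6 h and 9 h both fell in the light, with 9 h near its end, but the light schedule of that chamber was not given in the sources used here. Time of day and time since the shift cannot be told apart in this comparison, and no library at 28 °C was taken at these hours. No group had a replicate. The p-values rest on how far the difference between 9 h and 6 h varied between the genotypes, pooled over all genes. A small p thus does not show that a gene changed alike in both.

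The 4 libraries held between 353104 and 446893 tags, so that 1 sense tag was worth 2.49 to 3.18 tags per 1000000 sense tags (TPM). The loci compared held 82.6% of all sense tags of the 4 libraries. Loci of the chloroplast genome took 16.4% of sense tags in slh1 and 16.8% in No-0 at 9 h, against 14.9% in slh1 and 22.6% in No-0 at 6 h. This change in share lay in the loci ATCG00950 and ATCG01180. Together they took 9.46% in slh1 and 10.5% in No-0 at 9 h, against 7.75% in slh1 and 16.4% in No-0 at 6 h. The median log2 ratio over the 67 tested chloroplast loci was below 0 in both genotypes, at -0.22 in slh1 and -0.39 in No-0. Fold changes were taken after scaling by the trimmed mean of M values (TMM), while TPM are shares of all sense tags, and the log2 fold change then had a median of 0.02 over the genes tested. Marker genes were read to check the tissue. The 4 mesophyll markers RBCS1A, LHCB1.3, LHCB3 and CA1 summed to 26861 (slh1) and 30449 (No-0) TPM at 9 h, against 31036 (slh1) and 30501 (No-0) TPM at 6 h. Of the 4 root markers 2 had no tag in any of these libraries, nor had 2 of the 4 markers of flower and seed, and the lists summed to at most 14.9 TPM and 12.7 TPM in a library. Markers of phloem companion cells (SUC2, AHA3 and PP2-A1) summed to 107 (slh1) and 102 (No-0) TPM at 9 h, against 165 (slh1) and 44.5 (No-0) TPM at 6 h. The 5 markers of guard cells and epidermis summed to 116 (slh1) and 110.0 (No-0) TPM at 9 h, against 107 (slh1) and 43.0 (No-0) TPM at 6 h. Most of the second sum was GL2, with 80.9 (slh1) and 104 (No-0) TPM at 9 h, against 91.4 (slh1) and 27.0 (No-0) TPM at 6 h. Both sums were lowest in the No-0 library of 6 h. FAMA, at 9.54 TPM, was instead highest in that library, and ATML1 was lowest in No-0 at 9 h. The second sum thus stands for GL2 rather than for a cell type, and the part of cell composition in the results below was not tested. In such bulk samples fewer cells of a type and less RNA per cell cannot be told apart.

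At 9 h the evening clock gene ELF4, the clock-controlled RNA-binding protein genes GRP7 and GRP8 and the cold-regulated gene COR27 were more abundant than at 6 h, in slh1 and in No-0. Less abundant in both were 15 genes for light-harvesting proteins, 4 genes of chlorophyll synthesis and CAT2, the catalase gene of photorespiration. Of the 2309 genes, 72 were called higher at 9 h (3.12% of genes tested) and 116 lower (5.02%) by edgeR's quasi-likelihood test with genotype as a block, at a Benjamini-Hochberg adjusted p below 0.05. At an unadjusted p below 0.05 there were 423. All 188 calls had the same sign in both genotypes, a property that this test favours, whereas 61.2% of all genes tested did. Of the calls, 37 of the higher and 66 of the lower genes were at least 2-fold apart, and the smallest called difference was 0.43 on the log2 scale. The genes called lower had a median of 147 (slh1) and 143 (No-0) TPM at 9 h, against 330.0 (slh1) and 280.0 (No-0) TPM at 6 h. The median of the genes called higher was 385 (slh1) and 409.7 (No-0) TPM at 9 h, against 190.4 (slh1) and 188 (No-0) TPM at 6 h.

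With 1 residual degree of freedom edgeR shared the spread completely across genes, so that a gene whose change differed in size between the genotypes could still have a small p. The SE printed with a change is its absolute log2 value divided by the square root of the F statistic. It rests on the same shared spread and does not measure the error of that gene between replicates. DESeq2 called 12 genes higher and 31 lower, limma-voom 52 and 106, and an edgeR fit over all 8 libraries 12 and 33. In the same direction 33 genes were called by all 4 of these fits, the one above included. DESeq2 gave no adjusted p for 716 of the 2309 genes, which it therefore could not call. A gene given below as not called by DESeq2 may be one of these. Scaled by total sense tags the calls were 63 higher and 59 lower, with a median log2 fold change of 0.13 over all genes, and 51.6% of calls were then higher, against 38.3% with TMM. With each of the 4 libraries left out in turn from the fit over all 8 libraries, 0 to 1 genes were called higher and 5 to 12 lower.

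**Figure D1:**
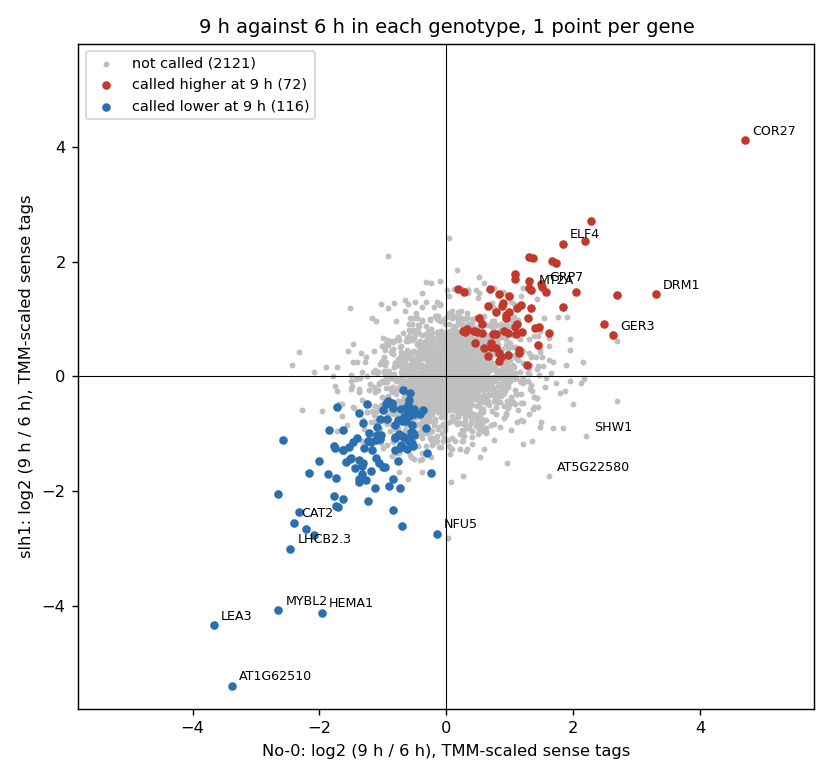
Log2 ratio of 9 h to 6 h in No-0 (horizontal axis) and in slh1 (vertical axis) after TMM scaling, 1 point per gene, with the 72 genes called higher in red and the 116 called lower in blue. The called genes lie in the 2 quadrants of equal sign, COR27 farthest at the upper right and LEA3 and AT1G62510 farthest at the lower left, while NFU5 and GER3 moved mostly in 1 genotype. FRO6, with under 1 tag in No-0 at 9 h, is not drawn.

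Each genotype is a pair of libraries of its own, so a gene chosen in one pair could be read in the other. In No-0, 134 genes were at least 2-fold higher at 9 h (5.8% of genes tested) and 137 at least 2-fold lower (5.93%), with an exact 95% binomial interval (Clopper-Pearson, counting error only) that excluded no change. Of the 134 higher genes, 67.2% were also higher in slh1, where 49.7% of all genes tested were, and of the 137 lower genes 81.0% were also lower, against 50.3% of all genes. The median log2 ratio of the higher genes was 0.29 in slh1, where they were only read, and 1.34 in No-0, where they were chosen. For the lower genes it was -0.76 in slh1 and -1.36 in No-0. Chosen in slh1, 109 genes were higher (4.72%) and 146 lower (6.32%). No-0 had 74.3% of those 109 genes higher and 80.1% of those 146 genes lower, against 49.9% and 50.1% of all genes tested. In both readings the genes chosen as lower were met again more often than the genes chosen as higher, a difference that was not tested.

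The evening clock list held 12 genes, of which 3 passed the minimum and 1 was called higher. This was ELF4 (AT2G40080), a component of the evening complex, with 393 (slh1) and 319 (No-0) TPM at 9 h, against 76.2 (slh1) and 79.5 (No-0) TPM at 6 h. Its change of 2.09 ± 0.29 (SE, edgeR adjusted p 8.51e-11) left both libraries of 9 h well above both of 6 h. LUX, which encodes the DNA-binding partner of ELF4 and carries a run of 19 A, had 86.7 (slh1) and 92.6 (No-0) TPM at 9 h, against 38.7 (slh1) and 48.2 (No-0) TPM at 6 h, and its log2 fold change of 0.97 did not pass the test (adjusted p 0.230). The other tested member, CHE, had 74.7 (slh1) and 46.7 (No-0) TPM at 9 h, against 60.9 (slh1) and 102 (No-0) TPM at 6 h, and did not pass either. GI, TOC1, PRR5 and the other evening genes had too few tags to be tested, and the whole list summed to 782 (slh1) and 619 (No-0) TPM at 9 h, against 300.1 (slh1) and 341 (No-0) TPM at 6 h. None of the 14 morning clock genes reached the minimum. They summed to 138 (slh1) and 74.7 (No-0) TPM at 9 h, against 226 (slh1) and 134 (No-0) TPM at 6 h, and to 274 (slh1) and 309 (No-0) TPM at 0 h and 1079.7 (slh1) and 1123 (No-0) TPM at 24 h. LHY alone had 0 (slh1) and 0 (No-0) TPM at 0 h, and 306 (slh1) and 308 (No-0) TPM at 24 h, so that its levels at 0 h and 24 h lay apart in both genotypes.

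COR27 (AT5G42900), a cold-induced gene of the cold list whose protein also acts on the clock, had the largest increase of all genes tested, with 137 (slh1) and 94.4 (No-0) TPM at 9 h, against 7.62 (slh1) and 3.18 (No-0) TPM at 6 h. It changed by 4.23 ± 0.65 (SE, edgeR adjusted p 7.66e-09), over only 3 tags in slh1 and 1 tag in No-0 at 6 h. It thus reached the minimum only through its tags at 9 h. DESeq2 did not call it, and its gene carries a run of 23 A, sought over the whole gene with introns included. Priming inside a transcript can occur at such a run, but whether the transcript holds it was not tested. Of the 19 clock output genes 6 were tested, 3 were called higher (GRP7, GRP8 and CAT3) and 2 lower (CAT2 and BBX24). GRP7 (AT2G21660), a glycine-rich RNA-binding protein under clock control, was the most abundant gene called higher and had 6996 (slh1) and 7850.1 (No-0) TPM at 9 h, against 2287 (slh1) and 2456 (No-0) TPM at 6 h. It changed by 1.54 ± 0.15 (SE, edgeR adjusted p 1e-22), and its log2 ratio was 1.56 in slh1 and 1.51 in No-0. Its paralog GRP8 had 1063 (slh1) and 1125 (No-0) TPM at 9 h, against 597 (slh1) and 814 (No-0) TPM at 6 h, and a change of 0.54 ± 0.18 (SE, edgeR adjusted p 0.0320), which was not called by DESeq2, in the fit over all 8 libraries or under total-tag scaling, and lay between 0.09 without slh1 6 h and 1.01 without No-0 6 h with 1 library left out of the fit over all 8.

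The catalase genes moved in opposite directions. CAT2 (AT4G35090), whose enzyme removes the hydrogen peroxide of photorespiration, had 137 (slh1) and 140.2 (No-0) TPM at 9 h, against 777 (slh1) and 659 (No-0) TPM at 6 h. The groups stood far apart, at -2.48 ± 0.22 (SE, edgeR adjusted p 2.54e-25). CAT3 (AT1G20620), known as the evening-phased catalase, had 1169 (slh1) and 1444 (No-0) TPM at 9 h, against 886 (slh1) and 813 (No-0) TPM at 6 h, a change of 0.50 ± 0.17 (SE, edgeR adjusted p 0.0413). DESeq2, limma-voom, the fit over all 8 libraries and total-tag scaling called CAT2 as well and did not call CAT3, which lay between 0.26 without No-0 9 h and 0.72 without slh1 9 h in the fit over all 8 libraries with 1 left out. BBX24, a B-box protein of light signalling, had 227 (slh1) and 271 (No-0) TPM at 9 h, against 447 (slh1) and 344 (No-0) TPM at 6 h, a change of -0.78 ± 0.22 (SE, edgeR adjusted p 0.00989) that DESeq2, the fit over all 8 libraries and total-tag scaling did not call and that lay between -1.07 without No-0 9 h and -0.51 without slh1 9 h with 1 library left out.

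**Figure D2:**
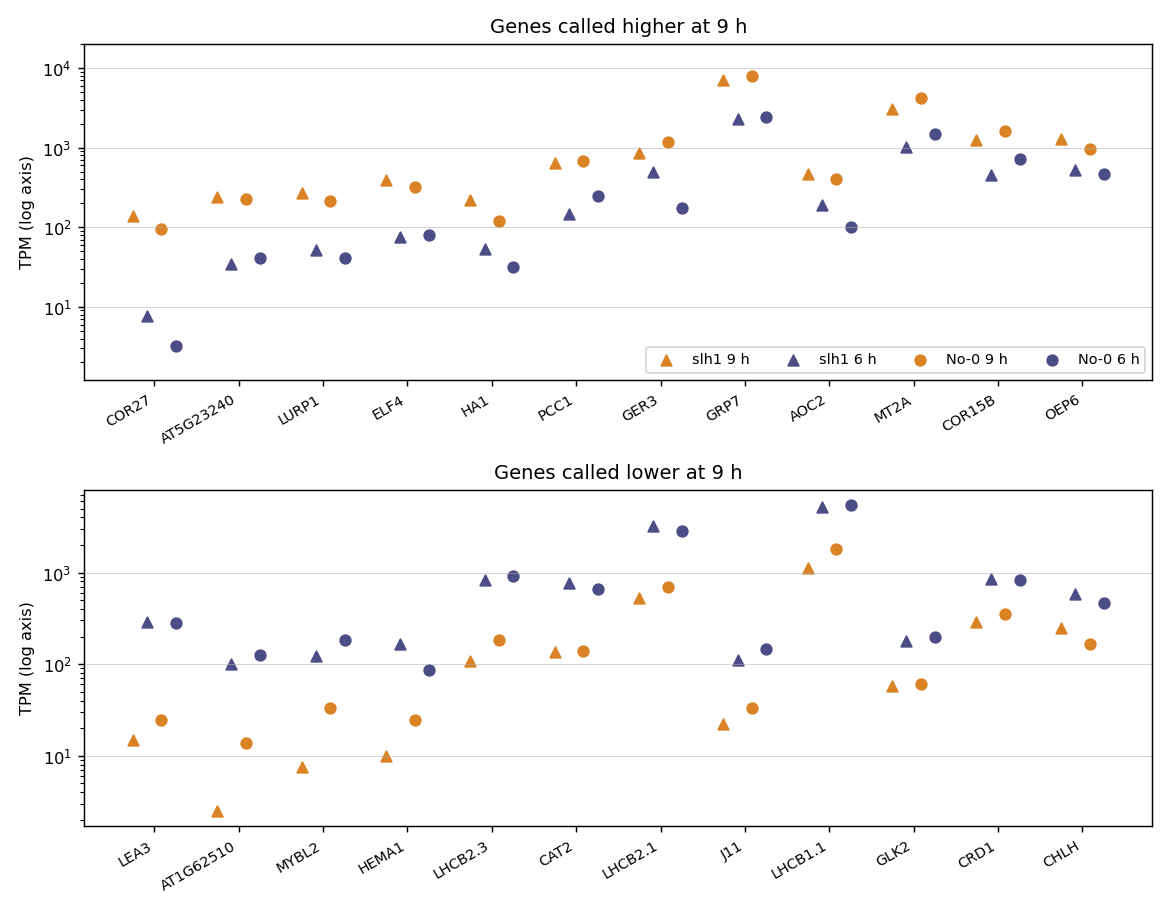
Level of 12 genes called higher (upper panel) and 12 called lower (lower panel) in each of the 4 libraries, in TPM on a log axis, with slh1 as triangles, No-0 as circles, 9 h in orange and 6 h in dark blue. The genes drawn were picked from those called on these same 4 libraries, a choice that favours levels at 9 h lying apart from those at 6 h. GRP7, for example, had 6996 (slh1) and 7850.1 (No-0) TPM at 9 h, against 2287 (slh1) and 2456 (No-0) TPM at 6 h.

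The evening element was searched in the promoters, taken as the 250 bases before to the 50 bases after each annotated start (RefSeq, TAIR10.1), on both strands. The letters AAAATATCT were found in 10 of 72 promoters of genes called higher (13.9%), in 6 of 111 of genes called lower (5.41%) and in 99 of all 2233 promoters of genes tested (4.43%). The 10 genes were COR27, GRP7, MT2A, AT4G30650, MEE14, OEP6, CCL, THIC, GRP8 and CAT3. The stretches below belong to the 6 of these with log2 fold changes over 1, shown so that the repeats of the element can be read. They run 5′ to 3′ along each gene's own strand, and capitals mark the element, which reads AGATATTTT where it lies on the other strand.
COR27, chr5:17199910-17199961, minus strand: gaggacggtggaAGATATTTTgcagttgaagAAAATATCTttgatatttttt
GRP7, chr2:9266568-9266645, minus strand: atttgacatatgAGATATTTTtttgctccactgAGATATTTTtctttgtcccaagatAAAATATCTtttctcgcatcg
MT2A, chr3:2890610-2890652, minus strand: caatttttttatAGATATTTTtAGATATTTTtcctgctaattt
AT4G30650, chr4:14954130-14954178, plus strand: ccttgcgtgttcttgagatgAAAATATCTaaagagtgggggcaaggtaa
MEE14, chr2:6922199-6922247, minus strand: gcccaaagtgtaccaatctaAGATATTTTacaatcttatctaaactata
OEP6, chr3:23334075-23334123, minus strand: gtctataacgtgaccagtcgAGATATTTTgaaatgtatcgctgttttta
GRP7 held 3 copies within 78 bases, and COR27 and MT2A held 2 each. The matches are descriptions of the letters and not of bound sites.

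Other motifs were counted in the same windows. The CCA1-binding site AAAAATCT was in 17.1% of promoters of genes called lower, 6.94% of genes called higher and 8.42% of all genes tested. The I-box GATAAG, known from promoters of light-regulated genes, was in 29.7% of promoters of genes called lower, 34.7% of genes called higher and 19.3% of all. The G-box CACGTG was in 11.7%, 11.1% and 9.85% of the same sets, the CRT/DRE core CCGAC of cold-responsive genes in 8.11%, 18.1% and 15.8%, and the telo box AAACCCTA in 0.901%, 0% and 8.33%. The telo box was thus nearly absent from both called sets, while it was in 45.2% of the 73 promoters of cytosolic ribosomal protein genes tested, none of which was called. No motif contains another, although the evening element and the CCA1-binding site differ by few letters.

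**Figure D3:**
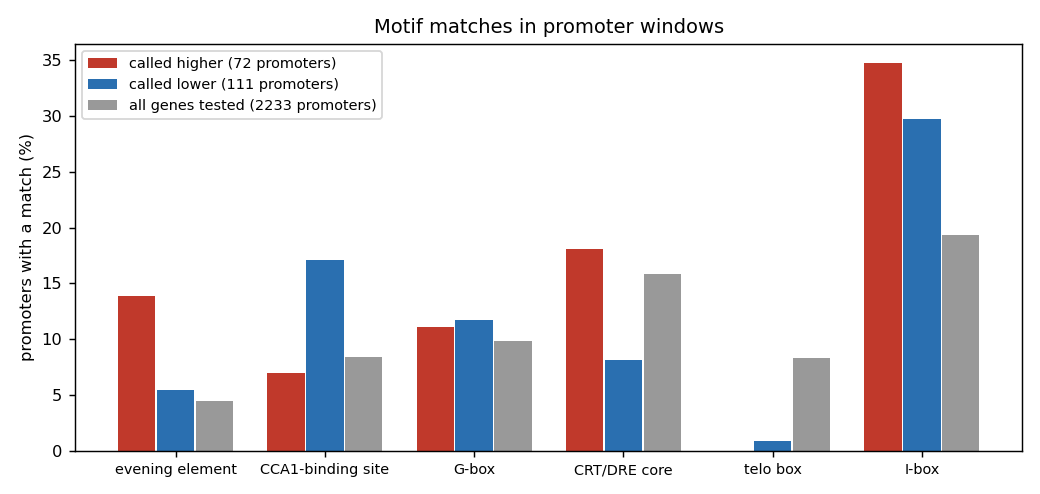
Percent of promoter windows with at least 1 match to each of 6 motifs, for the 72 genes called higher (red), the 111 promoters of genes called lower (blue) and the 2233 promoters of all genes tested (grey). The evening element stands out in the genes called higher (13.9%) and the CCA1-binding site in the genes called lower (17.1%).

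Light-harvesting proteins bind chlorophyll and pass light energy to the photosystems, the LHCB proteins to photosystem II and the LHCA proteins to photosystem I. Of the 20 listed genes 19 were tested, 15 were called lower at 9 h and none higher, and 18 were lower in both genotypes. Of all 2309 genes tested, 710 were lower and 702 higher in both genotypes. Their median log2 fold change was -0.76, against 0.02 over all genes tested, and lay between -0.97 and -0.65 in the 16 alternatives tried. Under total-tag scaling and under DESeq2 10 members were called lower, and 9 in the fit over all 8 libraries.

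The LHCB2 genes, which encode the mobile part of the antenna of photosystem II, had the largest decreases of the list. LHCB2.3 (AT3G27690) had 107 (slh1) and 186 (No-0) TPM at 9 h, against 833 (slh1) and 916 (No-0) TPM at 6 h, a change of -2.72 ± 0.22 (SE, edgeR adjusted p 3.75e-32). LHCB2.1 had 526 (slh1) and 697 (No-0) TPM at 9 h, against 3233 (slh1) and 2874 (No-0) TPM at 6 h, and LHCB2.2 had 566 (slh1) and 859 (No-0) TPM at 9 h, against 3739 (slh1) and 3237 (No-0) TPM at 6 h. These genes share reads that were split between them, but their sum, which depends less on the split, was 1199.8 (slh1) and 1742 (No-0) TPM at 9 h, against 7806 (slh1) and 7028 (No-0) TPM at 6 h. The sum changed by -2.75 on the log2 scale in slh1 (95% interval -2.89 to -2.61) and by -2.18 in No-0 (-2.31 to -2.05). Its level was 5977 (slh1) and 6486 (No-0) TPM at 0 h and 8618 (slh1) and 10067 (No-0) TPM at 24 h, and was lowest at 9 h in each genotype.

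Within the LHCB1 family, the main antenna of photosystem II, the members differed in size of change. LHCB1.1 (AT1G29920) had 1112 (slh1) and 1821 (No-0) TPM at 9 h, against 5136 (slh1) and 5398 (No-0) TPM at 6 h, a change of -1.99 ± 0.15 (SE, edgeR adjusted p 3.77e-35). The change of LHCB1.4 was -1.41 ± 0.18 (SE, edgeR adjusted p 7.29e-13), that of LHCB1.2 -0.99 ± 0.15 (SE, edgeR adjusted p 1.51e-09), and those of LHCB1.5 and LHCB1.3 were -0.58 and -0.55. LHCB1.5 lay between -0.81 without No-0 9 h and -0.38 without slh1 9 h in the fit over all 8 libraries with 1 left out. Summed over the 5 genes LHCB1 had 13333 (slh1) and 18792 (No-0) TPM at 9 h, against 25377 (slh1) and 28635 (No-0) TPM at 6 h, a log2 change of -0.98 in slh1 and -0.78 in No-0. These genes also share reads, which bears on single members more than on the sums, and LHCB1.2 carries a run of 15 A.

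Of the minor antenna genes, LHCB4.2 had 667 (slh1) and 924 (No-0) TPM at 9 h, against 1830.2 (slh1) and 2043 (No-0) TPM at 6 h, a change of -1.41 ± 0.16 (SE, edgeR adjusted p 5.03e-15). Its paralog LHCB4.1, the more abundant gene, had 3993 (slh1) and 4883 (No-0) TPM at 9 h, against 4947 (slh1) and 4931 (No-0) TPM at 6 h, and was not called (adjusted p 0.297). The log2 fold change of LHCB3 was -1.23 ± 0.15 (SE, edgeR adjusted p 2.33e-14), that of LHCB5 -0.64 and that of LHCB6 -0.59. At photosystem I, LHCA4 had 2882 (slh1) and 2816 (No-0) TPM at 9 h, against 5854 (slh1) and 4400.0 (No-0) TPM at 6 h, and changed by -0.94 ± 0.15 (SE, edgeR adjusted p 9.87e-09). LHCA1 was at -0.76 and LHCA3 at -0.64, both called, while LHCA2 had 3094 (slh1) and 3889 (No-0) TPM at 9 h, against 3589 (slh1) and 3958 (No-0) TPM at 6 h, and was not (adjusted p 0.428).

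The genes for the photosystems themselves had a median closer to that of all genes. All 22 listed nuclear genes for photosystem subunits were tested, 21 were lower in both genotypes and 7 were called lower, with a median log2 fold change of -0.25. Among all 2309 genes tested, 710 were lower in both. The called genes were PSAN (-0.74), PSAH2 (-0.60), PSAO (-0.60), PSBQ2 (-0.59), PSAD2 (-0.58), PSAK (-0.55) and PSAF (-0.48), 6 of them of photosystem I. PSAN, a subunit on the lumen side, had 1862 (slh1) and 2021 (No-0) TPM at 9 h, against 3094 (slh1) and 2933 (No-0) TPM at 6 h. The most abundant member, PSBR, had 8759.5 (slh1) and 9728 (No-0) TPM at 9 h, against 9679 (slh1) and 9812 (No-0) TPM at 6 h, and was not called. Only PSAN was called under total-tag scaling, and none was by DESeq2 or in the fit over all 8 libraries. Matches to the I-box were in 11 of the 22 promoters of this list and in 6 of 19 of the light-harvesting list, against 19.3% of all genes tested. They are shown for 4 genes called lower, with the I-box in capitals, which reads CTTATC on the other strand.
LHCB2.1, chr2:1824684-1824713, minus strand: tttattatataaGATAAGattcacatattt
LHCB4.2, chr3:2717536-2717565, plus strand: gagctttttataGATAAGgctgattttgtt
LHCA4, chr3:17495012-17495041, minus strand: cgaagataaaccGATAAGcctgtatctcct
PSAO, chr1:2641908-2641937, minus strand: tctggaatcaatCTTATCcaagaaatagac

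Chlorophyll synthesis starts from glutamate and branches to chlorophyll where magnesium is put into protoporphyrin. Of the 16 listed genes 13 were tested and 4 were called lower, none higher, and the median over the tested members was -0.14. HEMA1 (AT1G58290), glutamyl-tRNA reductase of the first committed step, had 9.96 (slh1) and 24.7 (No-0) TPM at 9 h, against 168 (slh1) and 85.9 (No-0) TPM at 6 h, a change of -2.94 ± 0.51 (SE, edgeR adjusted p 7.31e-07) that DESeq2 did not call. CHLH, the large subunit of the magnesium chelatase, had 249 (slh1) and 168 (No-0) TPM at 9 h, against 584 (slh1) and 464 (No-0) TPM at 6 h, and changed by -1.44 ± 0.22 (SE, edgeR adjusted p 6.22e-09). GUN4, which stimulates that chelatase, had 62.2 (slh1) and 33.0 (No-0) TPM at 9 h, against 129 (slh1) and 175 (No-0) TPM at 6 h, a change of -1.76 ± 0.40 (SE, edgeR adjusted p 0.000286). DESeq2 and the fit over all 8 libraries did not call it, and its value lay between -2.57 without slh1 9 h and -1.12 without No-0 9 h in the fit over all 8 with 1 left out. HEMA1 and GUN4 reached the minimum only through their tags at 6 h. CRD1, a subunit of the cyclase that forms the fifth ring, had 289 (slh1) and 349 (No-0) TPM at 9 h, against 841 (slh1) and 839.9 (No-0) TPM at 6 h, a change of -1.51 ± 0.20 (SE, edgeR adjusted p 3.41e-12).

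The other subunits of the same chelatase did not pass the test. CHLI1 had 279 (slh1) and 184 (No-0) TPM at 9 h, against 345 (slh1) and 159 (No-0) TPM at 6 h, and CHLD had 107 (slh1) and 99.0 (No-0) TPM at 9 h, against 115 (slh1) and 35.0 (No-0) TPM at 6 h. CHLM, the methyltransferase between chelatase and cyclase, had 443 (slh1) and 434 (No-0) TPM at 9 h, against 373 (slh1) and 267 (No-0) TPM at 6 h, and was not called (adjusted p 0.384). Of the protochlorophyllide reductase genes, PORB had 346 (slh1) and 390.4 (No-0) TPM at 9 h, against 489.9 (slh1) and 382 (No-0) TPM at 6 h, and did not pass. PORC had 192 (slh1) and 203 (No-0) TPM at 9 h, against 201 (slh1) and 185 (No-0) TPM at 6 h, and did not pass either. The 9 tested members that were not called lay between -0.35 and 0.45 on the log2 scale.

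Both GOLDEN2-like transcription factors, which activate nuclear genes for light harvesting and chlorophyll synthesis, were called lower. GLK2 (AT5G44190) had 57.3 (slh1) and 60.5 (No-0) TPM at 9 h, against 180.2 (slh1) and 197 (No-0) TPM at 6 h, a change of -1.78 ± 0.35 (SE, edgeR adjusted p 1.42e-05). GLK1 (AT2G20570, listed as GPRI1) had 74.7 (slh1) and 132 (No-0) TPM at 9 h, against 279 (slh1) and 194 (No-0) TPM at 6 h, a change of -1.33 ± 0.30 (SE, edgeR adjusted p 0.000269). They belonged to no list and were singled out after their values were seen, as were the next genes. A chloroplast signal recognition particle gene (AT2G47450), whose protein guides light-harvesting proteins to the membrane, had 115 (slh1) and 110.0 (No-0) TPM at 9 h, against 223 (slh1) and 210.0 (No-0) TPM at 6 h, or -1.05 ± 0.29 (SE, edgeR adjusted p 0.00765). Also called lower were CLA1 (-0.88) and HDR (-1.53), which encode an early and the last enzyme of the plastid isoprenoid pathway, ABA1 (-1.52), which encodes zeaxanthin epoxidase, and NCED4 (-1.99), a carotenoid cleavage dioxygenase. Called higher were LIN2 (1.01), a coproporphyrinogen oxidase upstream of the branch to chlorophyll, and CLH1 (0.82), a chlorophyllase. Among the genes of this paragraph only NCED4 was called by DESeq2, limma-voom and the fit over all 8 libraries alike. Each of the others, GLK1 and GLK2 included, was missed by at least 1 of these fits.

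Genes of the Calvin cycle showed no common direction. Of 19 listed and tested genes 2 were called higher and 2 lower, and the median log2 fold change was 0.09. In both genotypes 9 were higher and 4 lower, against 702 and 710 of all 2309 genes tested. RCA, Rubisco activase, was lower with 1403 (slh1) and 1276 (No-0) TPM at 9 h, against 2440.0 (slh1) and 1658 (No-0) TPM at 6 h, a change of -0.70 ± 0.16 (SE, edgeR adjusted p 0.000265). FBA1, a plastid aldolase, had 1217 (slh1) and 1466 (No-0) TPM at 9 h, against 1774 (slh1) and 2615 (No-0) TPM at 6 h, and changed by -0.80 ± 0.15 (SE, edgeR adjusted p 1.37e-05), with a value between -1.19 without slh1 6 h and -0.40 without No-0 6 h when 1 library was left out of the fit over all 8. RBCS1B, a small subunit of Rubisco, was higher and had 4363 (slh1) and 4071 (No-0) TPM at 9 h, against 2821 (slh1) and 2656 (No-0) TPM at 6 h, a change of 0.51 ± 0.15 (SE, edgeR adjusted p 0.00892), and PGK1, phosphoglycerate kinase, was at 0.55. The small subunit genes share reads, and their sum was 34624 (slh1) and 37351 (No-0) TPM at 9 h, against 32361 (slh1) and 28934 (No-0) TPM at 6 h, a log2 change of 0.05 in slh1 and 0.20 in No-0. Neither DESeq2 nor the fit over all 8 libraries called any of the 4 genes, and total-tag scaling did not call RCA.

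Photorespiration recovers the carbon lost when Rubisco takes up oxygen. Of its 14 genes 13 were tested and 2 were called lower. GGT1, glutamate:glyoxylate aminotransferase of the peroxisome, had 202 (slh1) and 253 (No-0) TPM at 9 h, against 472 (slh1) and 395 (No-0) TPM at 6 h, a change of -1.05 ± 0.22 (SE, edgeR adjusted p 0.000115). GLDP2, a P-protein of glycine decarboxylase, had 67.2 (slh1) and 35.7 (No-0) TPM at 9 h, against 157 (slh1) and 98.6 (No-0) TPM at 6 h, and changed by -1.42 ± 0.42 (SE, edgeR adjusted p 0.0119), while its paralog GLDP1 had 548 (slh1) and 476 (No-0) TPM at 9 h, against 703 (slh1) and 496 (No-0) TPM at 6 h, and was not called. The median of the list was -0.06 and was 0.05 under total-tag scaling. DESeq2 and the fit over all 8 libraries called none of its genes. In nitrogen and sulfur assimilation 1 of 7 tested genes was called, the nitrate reductase gene NIA2 with 204 (slh1) and 140.2 (No-0) TPM at 9 h, against 330.0 (slh1) and 258 (No-0) TPM at 6 h, a change of -0.88 ± 0.26 (SE, edgeR adjusted p 0.0117), which total-tag scaling, DESeq2 and the fit over all 8 libraries did not call. Plastid glutamine synthetase, GLN2, had 550.1 (slh1) and 701 (No-0) TPM at 9 h, against 498 (slh1) and 655 (No-0) TPM at 6 h, and a log2 fold change of 0.01.

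**Figure D4:**
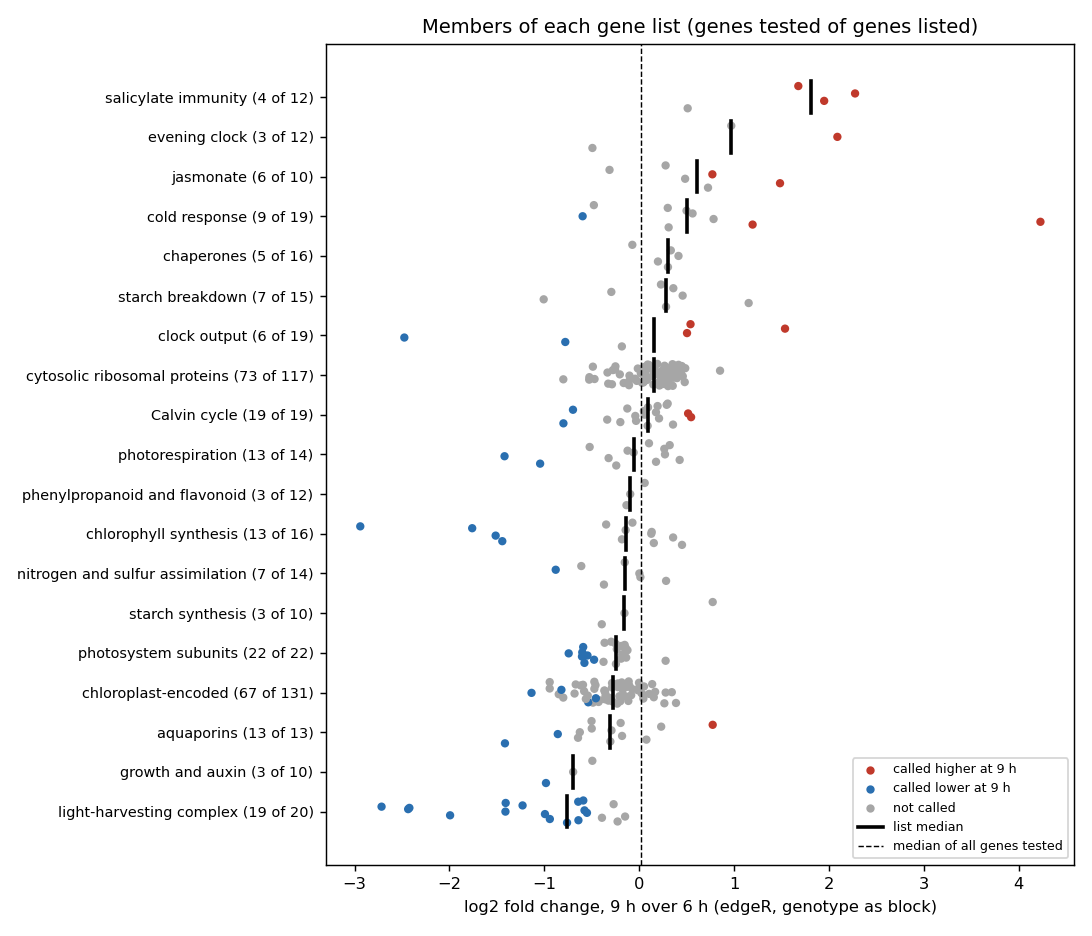
Log2 fold change of 9 h over 6 h for each tested member of each gene list with at least 3 tested members, called higher in red, called lower in blue and not called in grey, with the list median as a black bar and the median of all genes tested (0.02) as a dashed line. The light-harvesting list lies below 0 with a median of -0.76 over 19 genes, and the salicylate list lies above 0 with a median of 1.81 over 4 genes. Of the salicylate genes, LURP1 and ECS1 reached the minimum only through their tags at 9 h.

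The other genes with the largest decreases were of mixed kinds. LEA3 (AT1G02820), a late embryogenesis abundant protein of its family 3, had 14.9 (slh1) and 24.7 (No-0) TPM at 9 h, against 292 (slh1) and 280.0 (No-0) TPM at 6 h, a change of -3.95 ± 0.38 (SE, edgeR adjusted p 2.6e-22). AT1G62510, of the lipid-transfer protein family, had 2.49 (slh1) and 13.7 (No-0) TPM at 9 h, against 102 (slh1) and 127 (No-0) TPM at 6 h, a change of -3.95 ± 0.60 (SE, edgeR adjusted p 4.61e-09) that rests on 1 tag in slh1 and 5 in No-0 at 9 h and that DESeq2 did not call. MYBL2, a repressor of flavonoid synthesis, had 7.47 (slh1) and 33.0 (No-0) TPM at 9 h, against 122 (slh1) and 185 (No-0) TPM at 6 h, and changed by -3.12 ± 0.48 (SE, edgeR adjusted p 1.24e-08). In these 3 genes the libraries of 9 h lay far below those of 6 h in both genotypes, at low levels. Each reached the minimum only through its tags at 6 h.

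J11, a chaperone of the DnaJ type, had 22.4 (slh1) and 33.0 (No-0) TPM at 9 h, against 112 (slh1) and 146 (No-0) TPM at 6 h, a change of -2.33 ± 0.46 (SE, edgeR adjusted p 2.63e-05). AT2G15020, of unknown function, had 32.4 (slh1) and 19.2 (No-0) TPM at 9 h, against 129 (slh1) and 108 (No-0) TPM at 6 h, and was called at -2.30, though not by DESeq2. FRO6, a ferric reductase of leaves, had 52.3 (slh1) and 1.37 (No-0) TPM at 9 h, against 114 (slh1) and 102 (No-0) TPM at 6 h. Its change of -2.31 ± 0.50 (SE, edgeR adjusted p 0.000138) was larger in No-0, where under 1 tag was left at 9 h, and its value lay between -8.03 without slh1 9 h and -1.27 without No-0 9 h in the fit over all 8 libraries with 1 left out. Neither that fit nor DESeq2 called it. NCED4 had 44.8 (slh1) and 57.7 (No-0) TPM at 9 h, against 211 (slh1) and 169 (No-0) TPM at 6 h, with the libraries of 9 h again below those of 6 h in both genotypes. J11, AT2G15020, FRO6 and NCED4 also reached the minimum only through their tags at 6 h. Outside the 12 largest, VTC2, of ascorbate synthesis, was called lower with 174 (slh1) and 146 (No-0) TPM at 9 h, against 371 (slh1) and 359.5 (No-0) TPM at 6 h. P5CS1, of proline synthesis, was called lower with 37.3 (slh1) and 71.5 (No-0) TPM at 9 h, against 164 (slh1) and 149.5 (No-0) TPM at 6 h.

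Among the largest increases, AT5G23240, which encodes a protein with a DnaJ domain, had 241 (slh1) and 224 (No-0) TPM at 9 h, against 34.3 (slh1) and 41.4 (No-0) TPM at 6 h, a change of 2.50 ± 0.36 (SE, edgeR adjusted p 5.74e-10). HA1, a proton pump of the plasma membrane, had 217 (slh1) and 118 (No-0) TPM at 9 h, against 53.3 (slh1) and 31.8 (No-0) TPM at 6 h, a change of 1.87 ± 0.40 (SE, edgeR adjusted p 0.000106) that DESeq2 did not call. GER3, a germin-like protein of the cell wall, had 851 (slh1) and 1185 (No-0) TPM at 9 h, against 500.1 (slh1) and 172 (No-0) TPM at 6 h. Its change of 1.57 ± 0.20 (SE, edgeR adjusted p 9.66e-13) differed in size between the genotypes, 0.72 in slh1 and 2.62 in No-0, and lay between 0.75 without No-0 6 h and 2.56 without slh1 6 h in the fit over all 8 libraries with 1 left out. Neither that fit nor DESeq2 called it. AMT1;1, an ammonium transporter, was higher by 1.83 ± 0.52 (SE, edgeR adjusted p 0.00895) on the log2 scale. AT2G14247, of unknown function, was higher by 1.78 ± 0.32 (SE, edgeR adjusted p 1.65e-06) and AT5G23820, of a lipid recognition family, by 1.68 ± 0.48 (SE, edgeR adjusted p 0.0102). The calls of AMT1;1 and AT5G23820 were not made by limma-voom, DESeq2 or the fit over all 8 libraries. At 6 h AT5G23240 had 13.5 (slh1) and 13 (No-0) tags, HA1 21 and 10, AMT1;1 8 and 8, and AT5G23820 16 and 6. These genes reached the minimum only through their tags at 9 h, which favours a place among the largest increases. MT2A, a metallothionein that was singled out after its antisense tags were seen, had 3022 (slh1) and 4248 (No-0) TPM at 9 h, against 1023 (slh1) and 1498 (No-0) TPM at 6 h, a change of 1.42 ± 0.15 (SE, edgeR adjusted p 9.45e-18).

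The salicylate immunity list had 4 tested members of 12, and 3 were called higher in a direction shared by slh1 and No-0. Over all genes tested the share called higher was 3.12%. LURP1 and ECS1 reached the minimum only through their tags at 9 h, which favours members that are higher at 9 h. The count of 3 was thus favoured in advance. LURP1, required for defence against an oomycete, had 269 (slh1) and 212 (No-0) TPM at 9 h, against 52.0 (slh1) and 41.4 (No-0) TPM at 6 h, a change of 2.27 ± 0.34 (SE, edgeR adjusted p 4.78e-09). PCC1, named for its control by pathogens and the clock, had 635 (slh1) and 684 (No-0) TPM at 9 h, against 145 (slh1) and 248 (No-0) TPM at 6 h, a change of 1.68 ± 0.22 (SE, edgeR adjusted p 2.83e-12). ECS1 had 85.5 (slh1) and 114 (No-0) TPM at 9 h, against 30.5 (slh1) and 15.9 (No-0) TPM at 6 h, a change of 1.95 ± 0.51 (SE, edgeR adjusted p 0.00302). ACD6 had 180.5 (slh1) and 135 (No-0) TPM at 9 h, against 128 (slh1) and 79.5 (No-0) TPM at 6 h, and was not called (adjusted p 0.430), and PR1, PR2, PR5, EDS1, PAD4 and ICS1 were each too low to be tested. With 1 library left out of the fit over all 8 libraries, LURP1 lay between 1.07 without No-0 9 h and 3.87 without slh1 9 h, PCC1 between 0.20 without No-0 9 h and 3.49 without No-0 6 h and ECS1 between 0.49 without No-0 9 h and 4.48 without slh1 9 h, and the fit over all 8 libraries called none of the 3. DESeq2 and limma-voom did not call ECS1 either. At 24 h the genotypes stood apart. LURP1 had 654 (slh1) and 7.95 (No-0) TPM, PCC1 1169.6 (slh1) and 15.9 (No-0) TPM, and ECS1 219 (slh1) and 3.97 (No-0) TPM.

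The jasmonate list of synthesis and response genes had 6 tested members of 10, the enzyme genes LOX2, AOS, AOC1 and AOC2 and the vegetative storage protein genes VSP1 and VSP2. Of these 2 were called higher, 5 were higher in both genotypes (702 of all 2309 genes tested were), and the median was 0.60. AOC2, an allene oxide cyclase, had 459 (slh1) and 407 (No-0) TPM at 9 h, against 190.4 (slh1) and 102 (No-0) TPM at 6 h, a change of 1.48 ± 0.24 (SE, edgeR adjusted p 1.04e-07). LOX2, a plastid lipoxygenase of the first step, had 388 (slh1) and 374 (No-0) TPM at 9 h, against 185 (slh1) and 232 (No-0) TPM at 6 h, a change of 0.77 ± 0.23 (SE, edgeR adjusted p 0.0165) that DESeq2 and the fit over all 8 libraries did not call. AOS, of the step between them, had 309 (slh1) and 344 (No-0) TPM at 9 h, against 188 (slh1) and 248 (No-0) TPM at 6 h, and was not called (adjusted p 0.249). AOC2 shares reads with near copies, and its paralog AOC1 had 102 (slh1) and 85.2 (No-0) TPM at 9 h, against 45.7 (slh1) and 60.4 (No-0) TPM at 6 h. VSP1 had 41.1 (slh1) and 165 (No-0) TPM at 9 h, against 102 (slh1) and 103 (No-0) TPM at 6 h, higher at 9 h in No-0 and lower in slh1, and was not called. VSP2 had 46.1 (slh1) and 82.5 (No-0) TPM at 9 h, against 38.1 (slh1) and 58.9 (No-0) TPM at 6 h, and was not called either.

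Of 19 listed cold-regulated genes 9 were tested, with a median of 0.50, 6 being higher and 2 lower in both genotypes. For all 2309 genes tested these counts were 702 and 710. Besides COR27 only COR15B was called higher, with 1232 (slh1) and 1619.5 (No-0) TPM at 9 h, against 449 (slh1) and 725 (No-0) TPM at 6 h, a change of 1.19 ± 0.18 (SE, edgeR adjusted p 1.61e-09). COR15A, for a like protein of the chloroplast stroma, had 1212 (slh1) and 1977 (No-0) TPM at 9 h, against 1036 (slh1) and 1298 (No-0) TPM at 6 h, and was not called (adjusted p 0.290). KIN2, the most abundant member, had 1827 (slh1) and 4935 (No-0) TPM at 9 h, against 1684 (slh1) and 3053 (No-0) TPM at 6 h, and was not called. COR413-PM1 was called lower at -0.60 ± 0.20 (SE, edgeR adjusted p 0.0421), with 239 (slh1) and 561 (No-0) TPM at 9 h, against 432 (slh1) and 627 (No-0) TPM at 6 h, a call not made under total-tag scaling, by DESeq2, by limma-voom or in the fit over all 8 libraries, and it lay between -0.94 without No-0 9 h and -0.32 without slh1 9 h with 1 library left out of the fit over all 8. Genes for the CBF factors, which induce COR genes, were each too low to be tested.

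Of the 16 genes known to rise in darkness or sugar shortage only 2 reached the minimum, and both were called higher. The share called higher was 3.12% over all genes tested. DRM1, with 14 tags in slh1 and 5 in No-0 at 6 h, reached the minimum only through its tags at 9 h. DRM1 (AT1G28330, also named DYL1) had 99.6 (slh1) and 175 (No-0) TPM at 9 h, against 35.5 (slh1) and 15.9 (No-0) TPM at 6 h, a change of 2.21 ± 0.47 (SE, edgeR adjusted p 0.000116). DRM2 had 319 (slh1) and 451 (No-0) TPM at 9 h, against 170.1 (slh1) and 146 (No-0) TPM at 6 h, a change of 1.14 ± 0.25 (SE, edgeR adjusted p 0.000122), and lay between 0.61 without No-0 9 h and 1.67 without slh1 9 h in the fit over all 8 libraries with 1 left out. DRM1 carries a run of 15 A. DESeq2 called neither gene, and the fit over all 8 libraries did not call DRM2. The dark-induced gene ASN1 had no tag in any of the 4 libraries, and SEN1 had 7.47 (slh1) and 5.50 (No-0) TPM at 9 h, against 17.8 (slh1) and 15.9 (No-0) TPM at 6 h. At 24 h ASN1 had 87.5 (slh1) and 125 (No-0) TPM. No starch gene was called, with 7 of 15 breakdown genes tested at a median of 0.28 and 3 of 10 synthesis genes at -0.16. BAM3, the beta-amylase of starch breakdown, had 122 (slh1) and 96.2 (No-0) TPM at 9 h, against 40.6 (slh1) and 50.9 (No-0) TPM at 6 h, and its log2 fold change of 1.15 did not pass (adjusted p 0.0946).

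All 13 listed aquaporin genes were tested, 10 were lower in both genotypes, 2 were called lower and 1 higher, and the median was -0.30. Lower in both were 710 of all 2309 genes tested. PIP1;1, of the plasma membrane, had 112 (slh1) and 121 (No-0) TPM at 9 h, against 297 (slh1) and 280.0 (No-0) TPM at 6 h, a change of -1.42 ± 0.28 (SE, edgeR adjusted p 1.81e-05). PIP2;1 had 431 (slh1) and 544 (No-0) TPM at 9 h, against 904 (slh1) and 732 (No-0) TPM at 6 h, a change of -0.86 ± 0.19 (SE, edgeR adjusted p 0.000205). TIP1;1, of the vacuolar membrane, was higher with 524 (slh1) and 567 (No-0) TPM at 9 h, against 371 (slh1) and 230.0 (No-0) TPM at 6 h, a change of 0.77 ± 0.21 (SE, edgeR adjusted p 0.00529), and lay between 0.16 without No-0 6 h and 1.46 without slh1 6 h in the fit over all 8 libraries with 1 left out. DESeq2 and the fit over all 8 libraries called PIP1;1 and neither PIP2;1 nor TIP1;1. TIP1;2, the most abundant, had 1645 (slh1) and 1578 (No-0) TPM at 9 h, against 1718 (slh1) and 1708 (No-0) TPM at 6 h, and was not called.

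Several lists showed no call or 1 call. None of the 73 tested genes listed for cytosolic ribosomal proteins was called, and their median was 0.16, with 0.34 in slh1 and -0.02 in No-0. The list was built from annotated family names, and AT3G11510, of a ribosomal protein S11 family outside it, was called higher at 0.63. Of 5 tested chaperone genes and 3 tested phenylpropanoid genes none was called, CHS, chalcone synthase, having 456 (slh1) and 786 (No-0) TPM at 9 h, against 579 (slh1) and 611 (No-0) TPM at 6 h. Of 3 tested growth genes SAUR14 was called lower at -0.98 ± 0.33 (SE, edgeR adjusted p 0.0419), a call not made under total-tag scaling, by DESeq2 or in the fit over all 8 libraries, and lay between -1.27 without No-0 6 h and -0.62 without slh1 6 h with 1 library left out of the fit over all 8. UBQ10, often used as a reference gene, had 443 (slh1) and 452 (No-0) TPM at 9 h, against 571 (slh1) and 569 (No-0) TPM at 6 h, and was not called (adjusted p 0.159). Of 67 tested chloroplast loci 4 were called lower and none higher, with a median of -0.28. Among all 2309 genes tested 116 were called lower (5.02%), a share near that of these loci. None of the 4 loci was called under total-tag scaling, by DESeq2 or in the fit over all 8 libraries. The called loci included ATCG00340, with 1603 (slh1) and 1562 (No-0) TPM at 9 h, against 1820.0 (slh1) and 2233 (No-0) TPM at 6 h, and ATCG00080, with 866 (slh1) and 1160.3 (No-0) TPM at 9 h, against 1320.0 (slh1) and 1381 (No-0) TPM at 6 h. With 1 library left out of the fit over all 8, the log2 fold change of ATCG00340 lay between -0.78 without slh1 6 h and -0.15 without No-0 6 h, of ATCG00080 between -1.15 without No-0 9 h and -0.06 without slh1 9 h, of ATCG00630 (-1.14 in the comparison of 4 libraries) between -1.97 without slh1 6 h and -0.31 without No-0 6 h and of ATCG00800 (-0.82 in that comparison) between -1.33 without slh1 9 h and -0.45 without No-0 9 h.

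The libraries of 0 h and 24 h, which had no part in the comparison, place the values in the course of the experiment. The genes called higher had a median of 209 (slh1) and 150.0 (No-0) TPM at 0 h and 119 (slh1) and 100.3 (No-0) TPM at 24 h. For the genes called lower the median was 351 (slh1) and 309 (No-0) TPM at 0 h and 214 (slh1) and 252 (No-0) TPM at 24 h. GRP7 had 2398 (slh1) and 1609.9 (No-0) TPM at 0 h, and 156 (slh1) and 171 (No-0) TPM at 24 h. ELF4 had 59.8 (slh1) and 66.2 (No-0) TPM at 0 h, and 0 (slh1) and 5.96 (No-0) TPM at 24 h. At 24 h both were lower than at any other time. CAT2 had 698 (slh1) and 989.6 (No-0) TPM at 0 h, and 1532 (slh1) and 1998 (No-0) TPM at 24 h, and at 9 h it was at its lowest. LEA3 had 69.8 (slh1) and 88.2 (No-0) TPM at 0 h, and 0 (slh1) and 9.93 (No-0) TPM at 24 h, and was highest at 6 h. DRM2 had 49.8 (slh1) and 13.8 (No-0) TPM at 0 h, and 501 (slh1) and 427 (No-0) TPM at 24 h, and was lowest at 0 h.

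**Figure D5:**
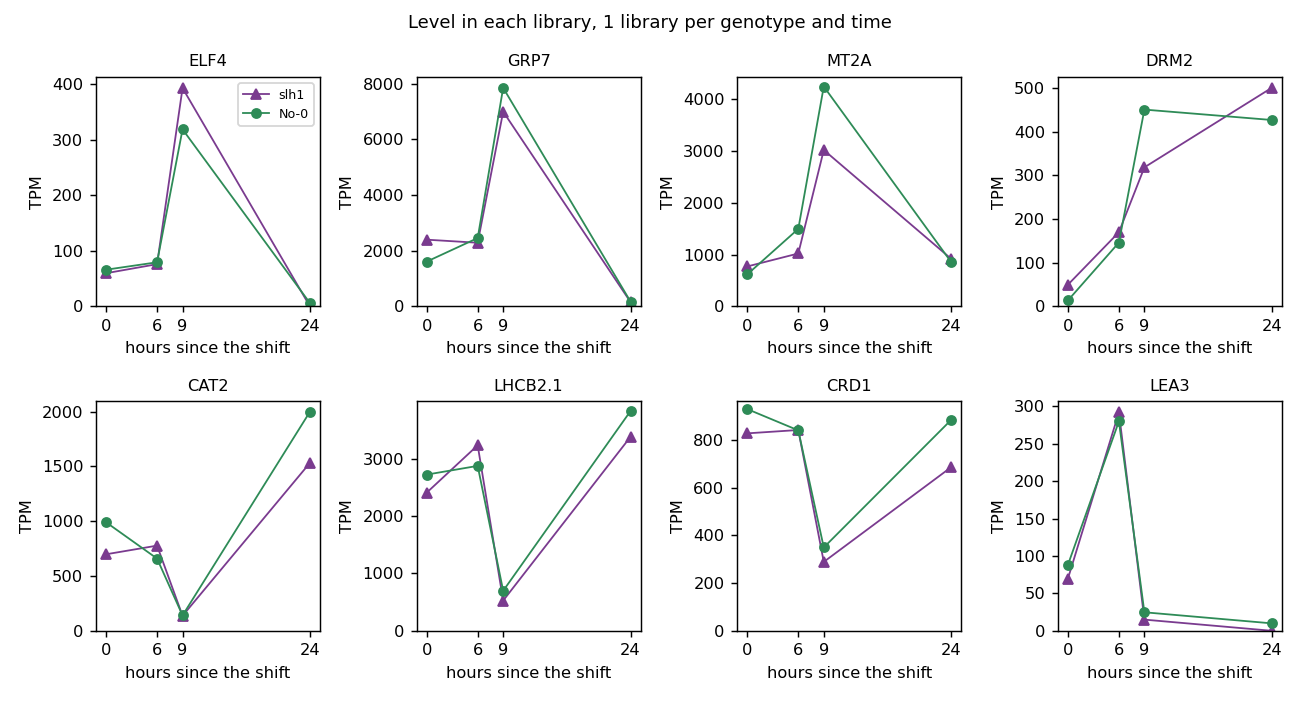
Level in TPM against hours since the shift for 8 called genes, slh1 as triangles and No-0 as circles, 1 library per point and lines only joining points of a genotype. ELF4, GRP7 and MT2A peak at 9 h, CAT2, LHCB2.1 and CRD1 are lowest at 9 h, and LEA3 is highest at 6 h, in both genotypes.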

How the data were processed

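EXPRSS Tag-seq libraries of leaf RNA, 1 per genotype and time, were pooled in 1 sequencing run, and reads were truncated to 36 bases. The deposited tables hold expected counts per locus and strand, in which the authors split a read that fits several genes equally between them, so that counts need not be whole. The submitters' processing notes name Bowtie 0.12.8 and Novoalign 2.08.03. The study's methods give Bowtie for its tag counting and BWA for the paired reads of these libraries, and which of them made the tables of read 1 was not settled. The authors counted on TAIR10, and names, A runs and promoters were taken from RefSeq TAIR10.1, which matched 2233 of 2309 genes tested. A runs were sought over the whole annotated gene, introns included, so that a run need not lie in the transcript.

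Sense counts were rounded to whole numbers and fitted with edgeR 4.0.16 (R 4.3.3; TMM, quasi-likelihood F test, genotype as block) on genes averaging at least 20 tags. A gene with few tags at either time could reach that mean through the other time. DESeq2 1.42.0, limma 3.58.1 (voom), other scalings, filters, designs and omitted libraries were alternatives. Scripts were tested on simulated data. Tags carry no molecular identifiers, so intervals cover counting error only. TPM divides by all sense tags of a library.

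Named genes were the 12 largest calls in each direction, every called list member, up to 6 members of each list with the most tags, and the 6 genes of opposite sign with the largest smaller absolute ratio. Other genes were singled out after their values were seen. The comparison and the lists were chosen with earlier results of these data known. A pooled record of reads with no library was not used here.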

Additional observations from a re-analysis of the deposited data

Results flagged for a closer look

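Some genes differed in opposite directions in the genotypes between 6 h and 9 h. In 49 of the 2309 genes the exact 95% binomial intervals (Clopper-Pearson, counting error only) excluded no change in both genotypes with opposite signs. The 6 in which the smaller of the 2 absolute ratios was largest follow, each as the log2 ratio of 9 h to 6 h. The difference between genotypes was not tested, and there is 1 library per point. AT5G22580, a stress-responsive A/B barrel protein, was at -1.74 (95% interval -2.59 to -0.96) in slh1 and 1.62 (95% interval 0.54 to 2.86) in No-0. AT1G53542, of unknown function, was at 1.18 (95% interval 0.28 to 2.16) in slh1 and -1.52 (95% interval -2.76 to -0.38) in No-0. ZKT, a protein with a PDZ domain, was at -1.17 (95% interval -1.97 to -0.41) in slh1 and 1.21 (95% interval 0.00 to 2.57) in No-0. PGLCT, the plastid glucose translocator, was at -1.13 (95% interval -2.12 to -0.19) in slh1 and 1.34 (95% interval 0.29 to 2.53) in No-0. SHW1 was at -1.04 (95% interval -1.90 to -0.23) in slh1 and 2.21 (95% interval 0.43 to 4.61) in No-0. ATMG01380, a locus of the mitochondrial genome, was at 1.01 (95% interval 0.09 to 2.01) in slh1 and -1.17 (95% interval -1.93 to -0.44) in No-0. Their levels were modest, as for AT5G22580 with 44.8 (slh1) and 99.0 (No-0) TPM at 9 h, against 145 (slh1) and 28.6 (No-0) TPM at 6 h, and for SHW1 with 49.8 (slh1) and 49.5 (No-0) TPM at 9 h, against 99.0 (slh1) and 9.54 (No-0) TPM at 6 h.

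Tags on the antisense strand, which the comparison did not use, also differed at 4 of the 277 loci with a mean of at least 20 antisense tags (edgeR adjusted p below 0.05, a fit added after the data were seen). At an unadjusted p below 0.05 there were 30 loci. At LHCB1.1 the antisense log2 fold change was -2.66 (edgeR adjusted p 0.00574), with 12.8 antisense tags in slh1 and 13.5 in No-0 at 9 h, against 101 in slh1 and 73.5 in No-0 at 6 h. At PIP2;1 it was -1.87 (edgeR adjusted p 0.0233), at MT2A 1.69 (edgeR adjusted p 0.0235) and at GRP7 1.46 (edgeR adjusted p 0.0191). GRP7 had 188 antisense tags in slh1 and 151 in No-0 at 9 h, against 74 in slh1 and 51 in No-0 at 6 h. The sense tags of each of the 4 genes were called in the same direction, and a part of sense tags in these antisense counts was not tested.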

How the results depend on the processing

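Against 72 genes called higher and 116 called lower, the counts were 42 and 63 with a mean of at least 50 tags, 45 and 89 with a mean of at least 1 tag, 12 and 31 with DESeq2 (149 genes at an unadjusted p below 0.05), 12 and 33 in the fit over all 8 libraries, 20 and 38 without the genotype block, 63 and 59 under total sense tags, and 26 and 61 without genes whose counts are not whole. With 1 library left out of the fit over all 8 libraries, 0 to 1 genes were called higher and 5 to 12 lower, and the 70 named genes that were called kept their direction in every alternative and each omission, with 5 to 9 of them still called in an omission. All calls had the same sign in both genotypes and the alternatives drew on the same libraries, so a kept direction was favoured in advance. Of the 81 named genes that were not called, 38 changed sign in at least 1 alternative. So did the medians of 9 of 21 lists, those for the Calvin cycle, chlorophyll synthesis, clock output, cytosolic ribosomal proteins, nitrogen and sulfur assimilation, phenylpropanoids, photorespiration, reference genes and starch synthesis. Of the 271 genes at least 2-fold apart in No-0, a fraction of 0.742 had the same direction in slh1, and of the 71 with a mean of 50 tags a fraction of 0.901. The genotype block pairs the times within each genotype, and no block on replicate numbers was possible because the labels give none and each group is 1 library. The cause of these differences was not tested.

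Limits are the depth, at which genes under 20 tags went untested, the single library per group, and the spread of 16.3% (biological coefficient of variation) that edgeR shared by all genes.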

Other observations

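The called genes below belonged to no list and were picked after their values were seen, so they stand for no pathway. HCT, the ferulic acid 5-hydroxylase gene AT4G36220, OMT1 and CCoAOMT1, whose enzymes act in the synthesis of lignin monomers, were called lower. HCT had 115 (slh1) and 93.5 (No-0) TPM at 9 h, against 173 (slh1) and 216 (No-0) TPM at 6 h, and AT4G36220 had 27.4 (slh1) and 44.0 (No-0) TPM at 9 h, against 86.3 (slh1) and 98.6 (No-0) TPM at 6 h. OMT1 had 39.8 (slh1) and 55.0 (No-0) TPM at 9 h, against 91.4 (slh1) and 121 (No-0) TPM at 6 h, and CCoAOMT1 had 42.3 (slh1) and 49.5 (No-0) TPM at 9 h, against 122 (slh1) and 85.9 (No-0) TPM at 6 h. Their adjusted p from edgeR lay between 0.0191 and 0.0470. C4H, of an earlier step of the same route, had 59.7 (slh1) and 63.2 (No-0) TPM at 9 h, against 78.7 (slh1) and 47.7 (No-0) TPM at 6 h, and was not called, at a log2 fold change of -0.14 (adjusted p 0.928).

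The methionine synthase gene AT3G03780 was called lower at -1.02 ± 0.22 (SE, edgeR adjusted p 0.000138) and the S-adenosylhomocysteine hydrolase gene SAHH2 at -0.88 ± 0.25 (SE, edgeR adjusted p 0.0104). The iron superoxide dismutase gene FSD1 had 42.3 (slh1) and 176 (No-0) TPM at 9 h, against 249 (slh1) and 255 (No-0) TPM at 6 h, and the glutathione peroxidase gene GPX1 had 112 (slh1) and 113 (No-0) TPM at 9 h, against 416 (slh1) and 219.5 (No-0) TPM at 6 h, both called lower. THI1 and THIC, which act in thiamine synthesis, were called higher. THI1 had 3815 (slh1) and 4713 (No-0) TPM at 9 h, against 2188 (slh1) and 2854 (No-0) TPM at 6 h, and THIC had 540.2 (slh1) and 412 (No-0) TPM at 9 h, against 299.5 (slh1) and 270.4 (No-0) TPM at 6 h. Among the called genes of these other observations only GPX1 was called by DESeq2, limma-voom and the fit over all 8 libraries alike.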
